A study of Homo sapiens with 3 samples.

Results

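The serpins are described here by 9 of their genes, SERPINE2, SERPINA1, SERPINB1, SERPINB5, SERPINB6, SERPINB8, SERPINB9, SERPINH1 and SERPINI1, on arrays of HCC-LM3 cells. The set was selected on measured values, since SERPINE2 was picked for its rise with GANT61 only on these same arrays. The levels of the set are therefore given as a description. Every probe that the platform annotation assigns to a listed gene was used. These are 14 probes of 8 genes, out of 30110 named probes of 20043 genes and 47319 probes in all. SERPINB6 had no named probe here, so its level was not analysed. HCC-LM3 is a human hepatocellular carcinoma (HCC) line, which the labels call an adenocarcinoma of epithelial morphology that grows adherent. It was incubated for 48 h with GANT61 (20 μM), which acts on the Gli transcription factors at the end of the Hedgehog (Hh) pathway, with cyclopamine (20 μM), which blocks the membrane protein SMO near its start, or with the vehicle DMSO. For each condition RNA was read on 1 array of the Illumina HumanHT-12 v4 type, and the 3 arrays address which genes respond to inhibition of Hh signaling.

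Serpins are a family of proteins with a shared fold, most of which trap serine proteases. The protease cuts an exposed loop of the serpin, the serpin springs into a new shape, and both proteins stay joined in an inactive complex. Clades A, E and I are mainly secreted and act on coagulation, fibrinolysis and tissue proteases, whereas clade B serpins lack a classical signal peptide and act mostly inside the cell. A few members, such as SERPINH1 and SERPINB5, have the fold but do not inhibit proteases. The liver is the main source of the serpins of blood plasma.

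The values are normalized signal intensities on a linear scale, and differences are log2 intensities of 1 array minus those of another. With 1 array per condition there was no replicate check on any difference, and no p-value is given. A difference was called at 2-fold. A probe counted as above background where its intensity exceeded 63.75, which is 1.5 times the most common intensity, and 10441 genes passed on at least 1 array by their brightest probe. As a measure of noise, the log2 differences of paired probes of 1 gene were set against each other. The spread between paired probes, divided by the square root of 2, gives the SD of a log2 difference of 1 probe. This value, called the SD of probe pairs below, was between 0.32 and 0.51 against the DMSO array, depending on brightness. It was between 0.18 and 0.22 for GANT61 minus cyclopamine. This SD covers probes and not cultures. Over all probes the SD of log2 differences was 0.47 for GANT61 minus DMSO, 0.39 for cyclopamine minus DMSO and 0.33 for GANT61 minus cyclopamine. By this spread the DMSO array differed more from the treated arrays than these did from each other. Of 14 hepatocyte marker genes with a named probe only ALB (albumin) was above background, at an intensity of 80.0 with GANT61, 70.4 with cyclopamine and 69.6 with DMSO. The defining products of hepatocytes were thus at or near background in this liver cancer line. Among 5 epithelial markers KRT8, KRT18 and EPCAM were above background, with EPCAM at 403, 387 and 401.5 and KRT8 (keratin 8) at 286, 335 and 1423. The log2 difference of KRT8 from DMSO was −2.32 with GANT61 and −2.09 with cyclopamine, and the epithelial list summed to 1009, 993 and 2109. KRT18 had 239, 181 and 183, and the lower sums came mainly from KRT8. The median log2 difference of the 3 genes was 0.006 with GANT61 and −0.053 with cyclopamine. No endothelial marker of 5 was above background. Of 7 fibroblast and stellate cell markers only ACTA2 and PDGFRB were, their list summing to 456, 989.5 and 584, while COL3A1, DCN and LUM were at background. ACTA2 had 210, 723 and 290, and the higher sum with cyclopamine came mainly from it. PDGFRB went the other way, with 38.0, 56.1 and 68.3, of which the DMSO value alone was above background. Of 5 immune markers only CD68, a lysosomal protein, was above background, at 1032, 509 and 238 by its brightest probe and 1679, 132 and 85.4 by another. PTPRC was at background. The part of these markers in the results was not tested.

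SERPINE2, also known as protease nexin-1, is a secreted and matrix-bound inhibitor of thrombin, urokinase and plasmin. Its RefSeq entry has a pair of annotated starts on chromosome 2. The 250 bases before each are shown because SERPINE2 is the serpin with the largest difference, with those of SERPINB8 and SERPINH1, the other members past 2-fold between GANT61 and DMSO. The sequences are those of RefSeq on GRCh38.p14, written 5′ to 3′ on the strand of the gene. Capitals mark matches on either strand to TGANTCA, GAANNTTC (bound by heat shock factors), TATAAA (the TATA box) or CCAAT (the CCAAT box). TGANTCA is a loose form of the AP-1 site, which is TGACTCA or TGAGTCA.
SERPINE2 first start, chr2:224031479-224031728, minus strand: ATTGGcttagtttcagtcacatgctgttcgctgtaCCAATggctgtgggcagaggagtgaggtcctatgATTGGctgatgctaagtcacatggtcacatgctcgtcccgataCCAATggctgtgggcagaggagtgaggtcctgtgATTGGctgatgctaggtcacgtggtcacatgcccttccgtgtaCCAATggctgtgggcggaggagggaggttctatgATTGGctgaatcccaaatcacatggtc
SERPINE2 second start, chr2:224038641-224038890, minus strand: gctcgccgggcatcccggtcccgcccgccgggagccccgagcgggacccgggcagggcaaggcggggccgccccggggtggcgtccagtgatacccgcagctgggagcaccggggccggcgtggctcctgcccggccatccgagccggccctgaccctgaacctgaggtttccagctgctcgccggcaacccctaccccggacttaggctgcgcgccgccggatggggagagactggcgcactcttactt
SERPINB8, chr18:63969831-63970080, plus strand: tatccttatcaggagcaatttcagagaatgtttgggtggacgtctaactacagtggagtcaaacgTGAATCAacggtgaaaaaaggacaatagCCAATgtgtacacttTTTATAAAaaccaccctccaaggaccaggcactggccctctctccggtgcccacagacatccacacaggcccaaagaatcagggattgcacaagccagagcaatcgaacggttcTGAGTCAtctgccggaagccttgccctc
SERPINH1 first start, chr11:75562003-75562252, plus strand: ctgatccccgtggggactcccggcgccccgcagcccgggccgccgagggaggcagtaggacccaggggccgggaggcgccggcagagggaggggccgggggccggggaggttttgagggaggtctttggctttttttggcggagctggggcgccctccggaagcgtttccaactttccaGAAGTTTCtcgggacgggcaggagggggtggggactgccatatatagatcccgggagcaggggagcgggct
The window before the first SERPINE2 start holds 7 CCAAT boxes, 3 in this orientation and 4 reversed, in a sequence that repeats itself. Of 35116 windows of this length in the table, 7 (0.0199%) hold at least 7 and 32.0% hold 1 or more, as do 4 of the 15 windows of the 9 serpin genes. The CCAAT box was added to the search after this sequence was seen. The window before the second SERPINE2 start, with a GC content of 75.2% against 53.2% for the first, holds none of the letters searched. The consensus of the Gli factors, GACCACCCA, is in none of the 15 windows of the 9 serpin genes and in 0.199% of all windows. These 15 include windows of SERPINB6, and some of the 15 overlap. TGANTCA lies in 2 of the 15 windows, those of SERPINB5 and SERPINB8, and in 6.57% of all. The SERPINB5 match and the first SERPINB8 match read TGAATCA, and only the second SERPINB8 match, TGAGTCA, has the letters of the AP-1 site. GAANNTTC lies in 1, the first of SERPINH1, and in 5.78% of all. The window before the second SERPINH1 start, which overlaps the first and is not printed, holds 1 CCAAT box, reversed, 27 bases before the start. TATAAA lies in 2, those of SERPINB8, where a pair of matches on opposite strands overlap, and SERPINB9, and in 10.7% of all. These matches describe the letters only, and which start HCC-LM3 cells use was not analysed here.

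On the arrays SERPINE2 had an intensity of 8979 with GANT61, 812 with cyclopamine and 895 with DMSO. The GANT61 array stood apart, and the cyclopamine and DMSO arrays lay close together. This is 10.03-fold higher with GANT61 than with DMSO, a log2 difference of 3.33 with an SD of probe pairs of 0.42. Against cyclopamine, the same dose and time of the other inhibitor, it was 11.1-fold higher with GANT61 (log2 difference of 3.47, SD of probe pairs 0.21). Cyclopamine minus DMSO was −0.14, within 1 SD of probe pairs (0.37), and turned to 0.67 when the arrays were scaled on the reference genes, a set of 9 genes commonly used to scale expression data. These 9 genes differed among themselves on these arrays, so values on their scale are given as an alternative only. With each gene represented by its brightest probe, among the 9361 genes measured above background on both treated arrays SERPINE2 had the largest difference of GANT61 minus cyclopamine and was the only gene at least 10-fold higher. Among the 9240 genes measured with GANT61 and with DMSO it ranked 2 from the highest, and 2 genes were at least 10-fold higher. These ranks hold for 1 probe per gene, and SERPINE2 was picked for its rise with GANT61 only, so they are a description. A dimmer CD68 probe, above background on all 3 arrays, had log2 differences of 4.30 for GANT61 minus DMSO and 3.66 for GANT61 minus cyclopamine, past those of SERPINE2. With cyclopamine and DMSO 19.7% of 9368 genes had a smaller absolute difference than SERPINE2. SERPINE2 has 1 named probe, so no second probe could be set beside it.

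**Figure D1:**
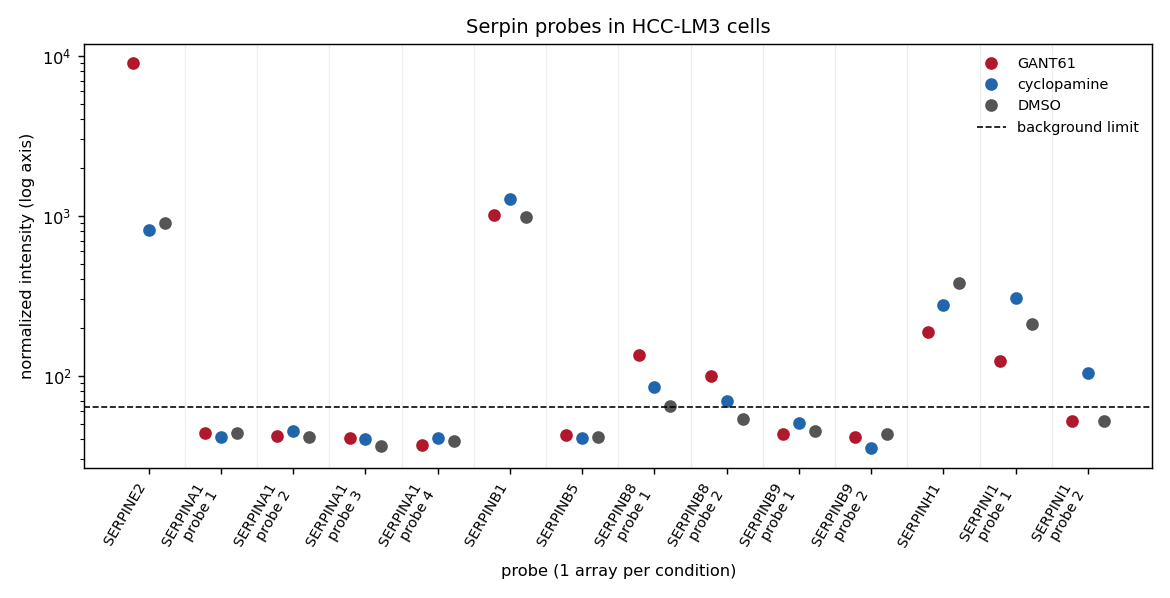
Normalized intensity (log axis) of the 14 serpin probes on the 3 arrays, 1 point per array, with GANT61 left of cyclopamine and DMSO. The dashed line is the background limit of 63.75. SERPINE2 is at 8979 with GANT61 against 812 and 895, and the SERPINA1, SERPINB5 and SERPINB9 probes all lie under the line.

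Clade B serpins above background were SERPINB1 and SERPINB8. SERPINB8 inhibits furin, a protease that matures secreted proteins. Its brighter probe had an intensity of 135 with GANT61, 85.3 with cyclopamine and 64.5 with DMSO, of which the last is just above the background limit. The order of GANT61, cyclopamine and DMSO held in both probes. The log2 difference was 1.07 for GANT61 minus DMSO (2.10-fold, SD of probe pairs 0.37), 0.40 for cyclopamine minus DMSO (SD 0.32) and 0.66 for GANT61 minus cyclopamine (SD 0.22). The second probe had 99.4 with GANT61, 69.6 with cyclopamine and 54.1 with DMSO. There SERPINB8 was not above background with DMSO, so only lower bounds can be given over DMSO, of 1.56-fold for GANT61 (at least 1.56-fold higher) and 1.09-fold for cyclopamine. GANT61 minus cyclopamine was 0.52 by this probe. The platform annotation gives the SERPINB8 probes different transcripts of the gene, and the level of SERPINB8 was low on every array.

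SERPINB1, the leukocyte elastase inhibitor, blocks the elastase-like enzymes of neutrophils. It had an intensity of 1011 with GANT61, 1281 with cyclopamine and 987 with DMSO. The cyclopamine array was highest, and the GANT61 and DMSO arrays lay close together. GANT61 minus DMSO was 0.034, far within 1 SD of probe pairs (0.42). Cyclopamine minus DMSO was 0.38 (SD 0.37), and GANT61 minus cyclopamine was −0.34 (SD 0.21). Scaled on the reference genes, cyclopamine minus DMSO was 1.19 for SERPINB1, so that its place under 2-fold depends on the scaling.

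SERPINI1 (neuroserpin) is an inhibitor of tissue plasminogen activator that is best known from neurons. Its brighter probe had an intensity of 123 with GANT61, 306 with cyclopamine and 212 with DMSO. The cyclopamine array was highest and the GANT61 array lowest. This probe was 2.48-fold lower with GANT61 than with cyclopamine, a log2 difference of −1.31 with an SD of probe pairs of 0.20. GANT61 minus DMSO was −0.78 (SD 0.43), short of 2-fold, and cyclopamine minus DMSO was 0.54 (SD 0.39). SERPINI1 thus lay on opposite sides of DMSO with the inhibitors, a contrast that no replicate allows to be tested. The other SERPINI1 probe had 52.3 with GANT61, 103.7 with cyclopamine and 52.3 with DMSO, of which the cyclopamine value alone was above background. By this probe SERPINI1 was at least 1.63-fold lower with GANT61 than with cyclopamine, and the cyclopamine value was at least 1.63 times that of DMSO. It gives no value for GANT61 against DMSO. Among 9361 genes measured on both treated arrays, SERPINI1 ranked 123 from the lowest in GANT61 minus cyclopamine. Scaled on the reference genes its GANT61 minus DMSO was −0.074.

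SERPINH1 encodes HSP47, a chaperone of the endoplasmic reticulum that binds folded procollagen and does not inhibit proteases. Its single named probe had an intensity of 187 with GANT61, 279 with cyclopamine and 383 with DMSO. The DMSO array was highest and the GANT61 array lowest. SERPINH1 was 2.04-fold lower with GANT61 than with DMSO, a log2 difference of −1.03 (SD of probe pairs 0.51), which lies just past 2-fold. Cyclopamine minus DMSO was −0.46 (SD 0.46) and GANT61 minus cyclopamine −0.57 (SD 0.20). Scaled on the reference genes, GANT61 minus DMSO was −0.33 and cyclopamine minus DMSO turned to 0.36 for SERPINH1, and neither was 2-fold.

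**Figure D2:**
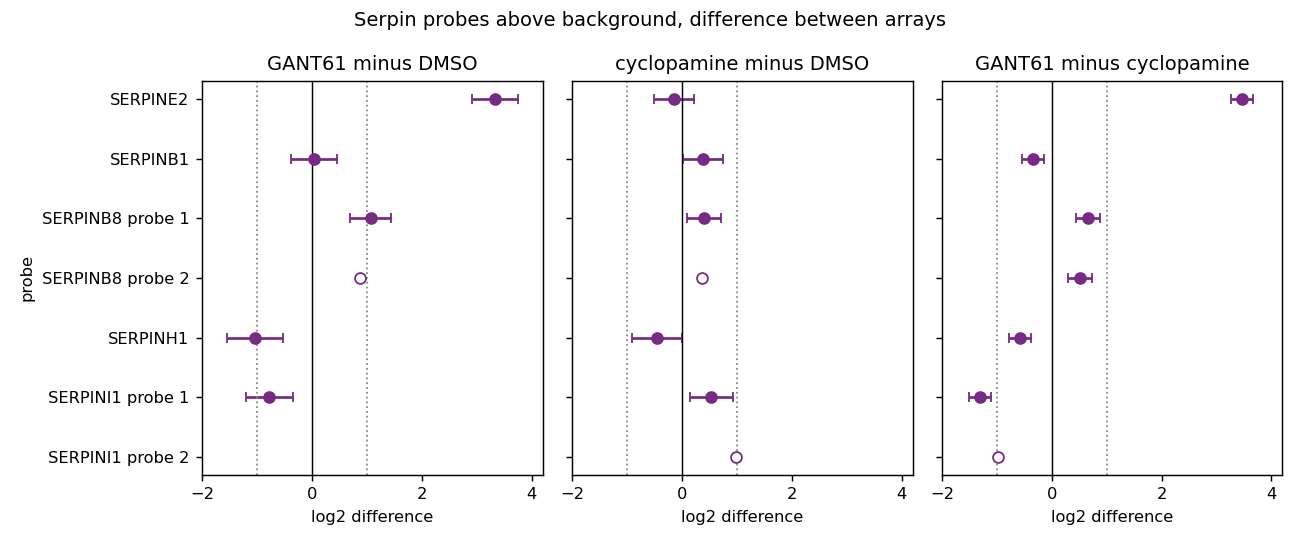
Log2 differences of the serpin probes above background for GANT61 minus DMSO, cyclopamine minus DMSO and GANT61 minus cyclopamine. Bars are 1 SD of the probe pairs, open points are measured differences with 1 array at background, drawn without a bar, and dotted lines mark 2-fold. SERPINE2 stands at 3.33 and 3.47 in the outer panels and at −0.14 in the middle, and SERPINI1 probe 2 has no point for GANT61 minus DMSO, where both arrays were at background.

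Counted together, 5 serpins were above background on at least 1 array. With GANT61 against DMSO 2 of these 5 (SERPINE2 and SERPINB8) were at least 2-fold higher, where 8.16% of all 10441 genes were, and 1 (SERPINH1) was at least 2-fold lower, where 9.64% were. SERPINE2 was listed for a rise with GANT61 only, so nothing is read from the first count, or from its place in the other comparisons. With cyclopamine against DMSO none of the 5 was 2-fold away in either direction, where 4.7% of all genes were higher and 6.31% lower. Scaled on the reference genes, 3 of the 5 (SERPINB1, SERPINB8 and SERPINI1) were at least 2-fold higher with cyclopamine, as were 4095 of the 10441 genes, while 83 were lower. With GANT61 against cyclopamine SERPINE2 was higher, where 2.31% of all genes were, and SERPINI1 lower, where 3.4% were. Both directions together, 17.8% of all genes were called for GANT61 against DMSO, 11% for cyclopamine against DMSO and 5.71% for GANT61 against cyclopamine. The median log2 difference of the 5 serpins was 0.034 for GANT61 minus DMSO, 0.38 for cyclopamine minus DMSO and −0.34 for GANT61 minus cyclopamine, beside 0.018, 0.033 and 0.010 over all 10441 genes. The serpins spanned −1.03 to 3.33 with GANT61 and −0.46 to 0.54 with cyclopamine. With the arrays scaled on the reference genes all 5 were above 0 with cyclopamine, from 0.36 to 1.35. Both comparisons share the DMSO array.

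The remaining members were at background. SERPINA1 encodes alpha-1-antitrypsin, the elastase inhibitor that hepatocytes secrete into plasma, and all 4 of its probes lay between 36.4 and 45.3 on the 3 arrays. SERPINB5 (maspin) is a serpin of epithelia that does not inhibit proteases, and its probe had 42.6 with GANT61, 40.9 with cyclopamine and 41.5 with DMSO. SERPINB9 protects cells from granzyme B, and its probes lay between 35.1 and 50.6. No difference is given for these genes, since none of their 7 probes was above background on any array. A further 24 genes of the serpin family had a named probe, among them the plasma serpins SERPINA3, SERPINC1 (antithrombin) and AGT (angiotensinogen), and none was above background on any array, with 50.9 the highest intensity. Of 14 genes that act in folding, export or degradation of alpha-1-antitrypsin in the endoplasmic reticulum, 13 were above background. With GANT61 1 of them was at least 2-fold higher and 2 lower, beside 8.16% and 9.64% of all genes, and with cyclopamine 2 were higher and 2 lower, beside 4.7% and 6.31%. After scaling on the reference genes 4 were higher with GANT61 and 7 with cyclopamine, and none lower. Over all 10441 genes that scaling called 3603 and 4095 higher, and 230 and 83 lower. UGGT1, the folding sensor that returns glycoproteins to the chaperone cycle, had 596 with GANT61, 663 with cyclopamine and 211 with DMSO. Its other probe had 151, 179 and 101, log2 differences of 0.58 and 0.83 from DMSO where the brighter one was past 2-fold with each inhibitor. CALR (calreticulin) had 395, 398 and 1105. HSPA5, the other gene past 2-fold upwards with cyclopamine, had 466, 1110 and 432. Its log2 differences were 0.11 for GANT61 minus DMSO, 1.36 for cyclopamine minus DMSO and −1.25 for GANT61 minus cyclopamine.

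The genes whose pattern was most like that of SERPINE2 were taken by distance in the plane of both log2 differences from DMSO, over 3 arrays and 9090 other genes above background on each. SERPINE2 lay at 3.33 with GANT61 and −0.14 with cyclopamine. The nearest was CDKN1A (p21, an inhibitor of the cell cycle), at a distance of 0.79, with intensities of 6506, 1264 and 1015 on the GANT61, cyclopamine and DMSO arrays. HSPA1B, an inducible HSP70 chaperone, followed at 0.84, with 4573, 926 and 751. Its sequence is nearly that of HSPA1A, and a probe may not tell the genes apart. TMEM158, a membrane protein induced by RAS signaling, lay at 1.01, IER3, an immediate early gene, at 1.05 and PHLDA1, a pleckstrin-like domain gene, at 1.07. All 5 differed by less than SERPINE2 between GANT61 and DMSO, at log2 differences of 2.26 to 2.68. The other CDKN1A probe was at background, and the other PHLDA1 probe, at 82.9 with GANT61 and 66.2 with cyclopamine and not above background with DMSO, gave a GANT61 minus cyclopamine of 0.32 beside 2.46 for the brighter probe. No function or control shared with SERPINE2 is read from this likeness.

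**Figure D3:**
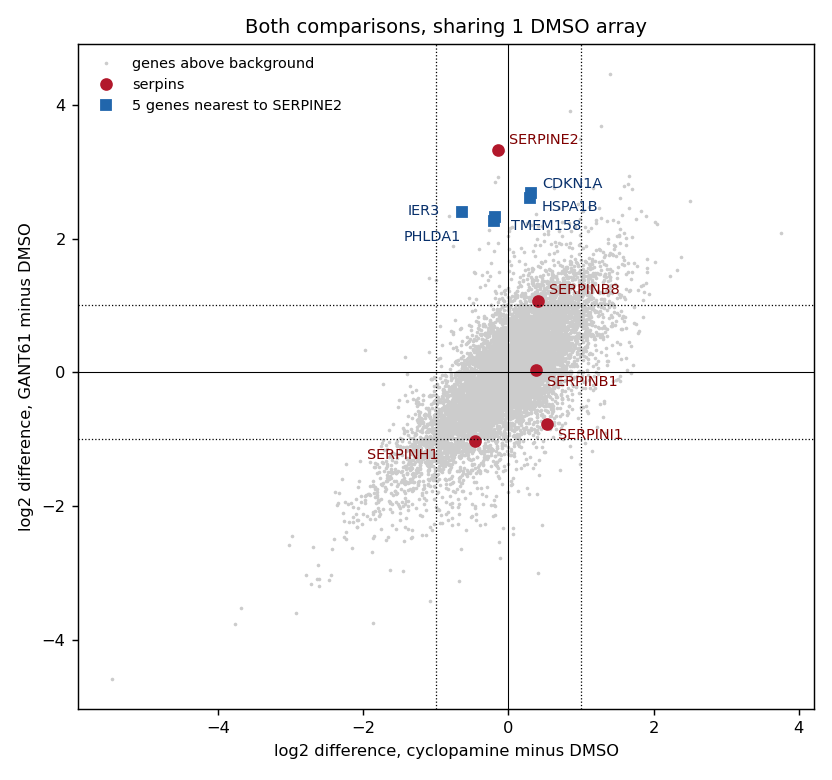
Log2 difference of GANT61 minus DMSO (vertical) against cyclopamine minus DMSO (horizontal) for 10441 genes above background in grey, with the 5 serpins and the 5 genes nearest to SERPINE2 marked. Both axes share the DMSO array, and dotted lines mark 2-fold. SERPINE2 (3.33 and −0.14) and SERPINI1 (−0.78 and 0.54) lie on either side of the cloud.

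Partners of the secreted serpins were read on the same arrays. Among 15 receptors and cofactors with a named probe, 11 were above background, with a median log2 difference of 0.035 for GANT61 minus DMSO and 0.068 for cyclopamine minus DMSO. PLAUR, the receptor that holds urokinase at the cell surface, had 559 with GANT61, 191 with cyclopamine and 261 with DMSO. Its log2 difference of GANT61 minus DMSO was 1.10, and its other probes gave 2.38 and 1.03. SDC1 (syndecan-1), a heparan sulfate proteoglycan, had 942, 611 and 450, and these 2 of the 11 were at least 2-fold higher with GANT61, where 8.16% of all genes were. With the probes of a gene averaged 1 was, beside 584 of 10005 genes, and scaled on the reference genes 5 were, beside 3603 of 10441. LRP1, the endocytic receptor that clears complexes of SERPINE2 with proteases, had 92.9 with DMSO and was not above background with GANT61 or cyclopamine, a level at least 1.46-fold lower with either inhibitor. LRPAP1, the chaperone of LRP1, had 365, 466 and 737, a log2 difference of −1.01 for GANT61 minus DMSO. By the deposited values 2 of the 11 (LRP1 and LRPAP1) were at least 2-fold lower with GANT61, where 9.64% of all genes were. With dim values set to the limit 1 was. Averaging the probes of a gene gave 2 lower, beside 801 of 10005 genes, and scaling on the reference genes 0, beside 230 of 10441. Scaled on the reference genes the medians of the list were 0.74 and 0.88.

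Of 18 proteases listed beside the serpins, 7 were above background, with medians of 0.67 and −0.11, and of 0.053 and −0.11 with dim values set to the limit. Among the targets of SERPINE2, the genes of thrombin (F2), tissue plasminogen activator (PLAT, also the target of SERPINI1), plasmin (PLG) and factor XI (F11) were at background on all 3 arrays. PLAU (urokinase) had 76.6 with GANT61 and 84.7 with DMSO and was not above background with cyclopamine. FURIN, the target of SERPINB8, had 73.7, 74.9 and 168, log2 differences of −1.19 and −1.16, while SERPINB8 was higher with GANT61. GZMB, the target of SERPINB9, and ELANE, CTSG and PRTN3, the neutrophil targets of SERPINB1 and SERPINA1, were at background. CASP4, an inflammatory caspase, had 1668, 1690 and 597, and CASP1 had 137, 203 and a DMSO value at background, lower bounds of 2.15-fold for GANT61 and 3.18-fold for cyclopamine. Thus 2 of the 7 were at least 2-fold higher with each inhibitor, and 2 with GANT61 (FURIN and ST14) and 1 with cyclopamine (FURIN) were lower. Over all genes 8.16% were higher and 9.64% lower with GANT61, and 4.7% and 6.31% with cyclopamine. With the probes of a gene averaged, 0 of the 7 were 2-fold higher with GANT61 and 1 with cyclopamine, beside 584 and 333 of 10005 genes. On the scale of the reference genes 4 and 3 were higher and none was 2-fold lower. Over all 10441 genes 3603 and 4095 were higher on that scale, and 230 and 83 lower.

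The clients of SERPINH1 are the collagens. Of 13 collagen chains 8 were above background, and with GANT61 6 of these were at least 2-fold lower than with DMSO, where 9.64% of all genes were. Their median log2 difference was −1.28, or −1.26 with dim values set to the limit, beside −1.03 for SERPINH1 and 0.018 over all genes. COL5A1 had 421 with GANT61, 2004 with cyclopamine and 2104 with DMSO. COL4A2, a basement membrane chain, had 112, 273 and 412, and COL1A1, a chain of type I collagen, had 74.9, 145 and 205. With cyclopamine the median of the collagens was −0.044 (0.77 after scaling on the reference genes). Here 1 of 8 (COL6A1) was 2-fold lower, where 6.31% of all genes were. With GANT61 2 of 8 were 2-fold lower under that scaling, where 230 of all 10441 genes were, and the median was −0.58. For GANT61 against cyclopamine 6 of 8 were 2-fold lower, where 3.4% of all genes were, at a median of −1.15. Scaled on the reference genes 7 of 8 were, beside 479 of 10441 genes, at a median of −1.26. With the probes of a gene averaged, 5 of 8 were 2-fold lower with GANT61 than DMSO, beside 801 of 10005 genes (median −1.20). Against cyclopamine 5 of 8 were as well, beside 281 of 10005 genes (median −1.09). Genes that fold or modify collagen beside SERPINH1 were above background in 18 of 21 cases. With GANT61 4 of these passed 2-fold downwards, where 9.64% of all genes did, and 1 upwards, where 8.16% did, at a median of −0.44. With cyclopamine 5 passed downwards, where 6.31% of all genes did, and none upwards, at a median of −0.58. By the mean of all probes 3 of 17 passed downwards with each inhibitor, beside 801 of 10005 genes with GANT61 and 530 with cyclopamine. Scaling on the reference genes turned the medians to 0.26 and 0.24. It left 1 downwards and 2 upwards for GANT61, and 0 downwards and 3 upwards for cyclopamine. Over all 10441 genes it gave 230 downwards and 3603 upwards for GANT61, and 83 and 4095 for cyclopamine. P4HB, a subunit of prolyl 4-hydroxylase, had 862, 1231 and 2572, and BMP1, the procollagen C-proteinase, had log2 differences of −1.75 and −1.49. CRTAP, part of the prolyl 3-hydroxylase complex, had −1.34 and −1.12 by its brightest probe and −0.52 and 0.14 by another. P3H2, a prolyl 3-hydroxylase, was higher with GANT61, at 1.10.

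**Figure D4:**
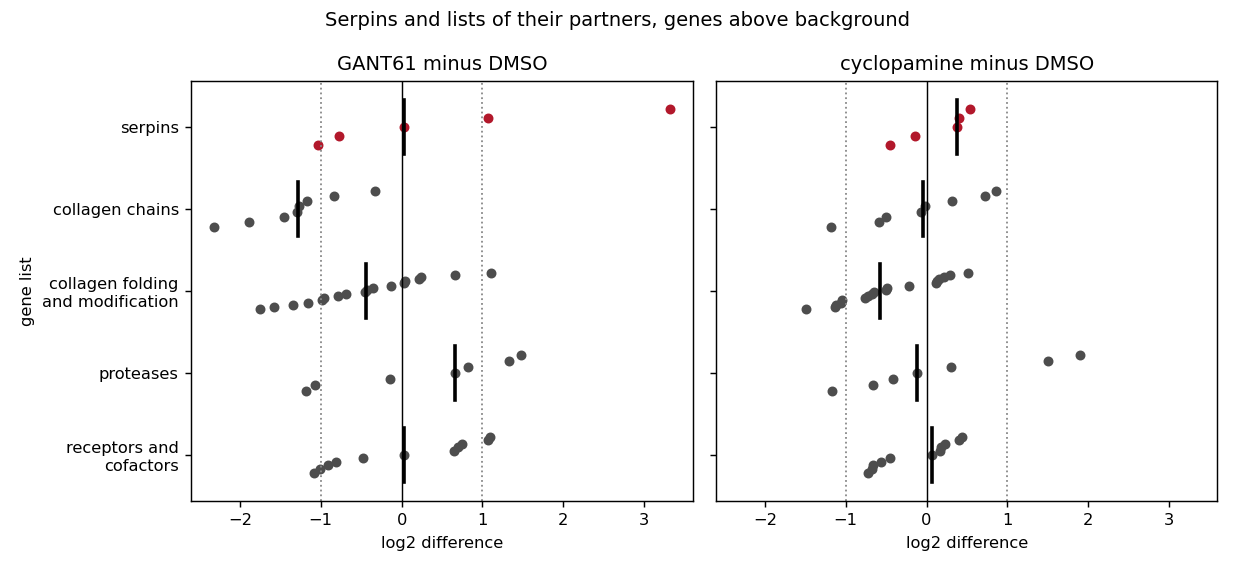
Log2 difference of GANT61 minus DMSO (left) and cyclopamine minus DMSO (right) for the 5 serpins and for the genes above background of 4 lists, 1 point per gene, with vertical bars at the list medians and dotted lines at 2-fold. With GANT61 the collagen chains lie left of 0 with a median of −1.28, and the serpins spread from −1.03 to 3.33.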

How the data were processed

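HCC-LM3 cells incubated with GANT61, cyclopamine or DMSO were profiled on 1 array each. The authors deposited a signal intensity per probe on a linear scale, from 27.1 to 21919 on each array. These values had been normalized between arrays, since the sorted values of the arrays lay within 0.886% of each other at every rank. For the software, the sources used here give no name. A further 6 columns before normalization have headings that match no sample and were not used. Of 47319 probes, 30110 have 1 gene symbol in the platform annotation, 17201 are unnamed here, and 8 with several symbols were dropped. Of those named, 30071 matched GRCh38.p14 by gene identifier. A gene was represented by its brightest probe. Where 1 array of a comparison was at background, the other was divided by the background limit and given as at least N-fold. The SD of probe pairs was scaled from the median absolute deviation between paired probes and expressed for 1 probe. It was taken in 5 classes of brightness, 435 pairs each.

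The number of arrays limits the precision, and no test between conditions was made. Members, lists and the choice of genes named in the text (all members, up to 6 genes of each list with the largest differences, defining genes at background, and the 5 genes nearest to SERPINE2) were chosen with earlier results of these data known. The alternatives were the mean of all probes, no filter on dim probes, a background limit of 2 times the most common intensity, 1.5-fold and 3-fold thresholds, normexp correction (offset 50, fitted on the deposited intensities) with quantile normalization, scaling on 9 reference genes, and centring on the median of all genes. The steps were tested on simulated arrays. Tools were limma 3.58.1 in R 4.3.3 and, in Python 3.11.15, numpy 2.4.6, pandas 2.3.3 and matplotlib 3.10.9.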

Additional observations from a re-analysis of the deposited data

How the results depend on the processing

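Counts of serpins at least 2-fold away were recomputed under 8 alternatives. With GANT61 against DMSO, 3 serpins became 1 (SERPINE2) at a 3-fold threshold and 1 after normexp correction with quantile normalization, while the other settings gave 2 to 4. With GANT61 against cyclopamine, 2 became 1 (SERPINE2) at 3-fold and 3 at 1.5-fold. With cyclopamine against DMSO the count was 0 except when scaled on the reference genes, where it was 3 (SERPINB1, SERPINB8 and SERPINI1, all higher). That scaling adds 0.70 (GANT61) and 0.81 (cyclopamine) to every gene, from the median of 9 reference genes that did not move together. With GANT61 6 of the 9 were lower than with DMSO, 3 of them at least 2-fold (among these PPIA at −1.37), and 3 were higher, up to 0.53 (HPRT1). With cyclopamine 8 were lower, 2 of them at least 2-fold, and 1 was higher. Which scale is the better one was not tested. The scaling changes the calls over all genes to 3603 higher and 230 lower with GANT61, against 852 and 1006 before, and to 4095 and 83 with cyclopamine, against 491 and 659. GANT61 against cyclopamine had 164 and 479, against 241 and 355. At 1.5-fold 2192 and 2170 genes were called with GANT61, 1636 and 1730 with cyclopamine and 1075 and 1146 between the inhibitors, and at 3-fold 177 and 295, 59 and 155, and 54 and 70.

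SERPINE2 kept a log2 difference of 3.30 to 4.03 for GANT61 minus DMSO and of 3.36 to 3.48 for GANT61 minus cyclopamine over the 4 alternatives run on single values. SERPINE2 was picked for its rise with GANT61 only, so nothing is read from this range. For SERPINE2, SERPINB1 and SERPINH1, with 1 probe each, the mean of all probes returns the same value by construction. Centring moved the GANT61 and cyclopamine arrays by only 0.018 and 0.033 against DMSO. Of 15 differences of the 5 serpins, 13 kept their sign under each of the 4 alternatives. The exceptions were SERPINE2 and SERPINH1 for cyclopamine minus DMSO, which turned with the scaling on reference genes. SERPINB8 was 0.89 to 1.77 for GANT61 minus DMSO and fell under 2-fold with normexp correction and with the mean of its probes. SERPINH1 was −1.05 to −0.33 and fell short of 2-fold with normexp correction (−0.96) and with the scaling on reference genes. No paired analysis was possible because each condition has 1 array, and leaving out an array would leave no comparison. SERPINA1, SERPINB5 and SERPINB9 cannot be read at these intensities, and SERPINB8 and SERPINI1 lie near background on some arrays.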
